A study of Mus musculus with 16 samples.

Results

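Receptors for the constant (Fc) part of IgG let macrophages, monocytes, neutrophils and other leukocytes respond to cells and particles coated with antibody. In mice, Fcgr1, Fcgr3 and Fcgr4 encode the activating receptors FcγRI, FcγRIII and FcγRIV, which reach the cell surface and signal through a shared chain, the product of Fcer1g. Fcgr2b encodes FcγRIIB, the inhibitory receptor that opposes them on the same cells and is also the IgG receptor of B cells. Fcgrt encodes the neonatal Fc receptor FcRn, which binds IgG and albumin inside the cell and returns them to the circulation. These 6 genes were taken by name from the 22298 genes counted in each tumor, and each of them was among the 16817 genes with enough counts to be tested. They were chosen for what their products bind or, for Fcer1g, carry to the surface.

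Poly(A) RNA was sequenced from tumors that grew in the abdomen of mice of the 615 line after 500000 cells of the wild-type mouse forestomach carcinoma line MFC were injected into the peritoneal cavity. The mice were 6 weeks old and received PBS as vehicle or 20 μg/kg of IL-33 by the same route every 2 days. Both groups consisted of 8 tumors. The vehicle tumors had between 14139268 and 24290794 counts and the IL-33 tumors between 16569613 and 24288893. No source used here states that the 16 tumors came from separate mice. A published survival experiment in this model used more mice per group than there are tumors. The published methods of the model, however, give fewer mice per group than there are tumors, so that tumors may share a mouse. The p-values therefore measure the spread between tumors and may overstate the replication between mice. Each pair of tumors differed by more than counting error (smallest chi-square over degrees of freedom 8.79), which does not show whether tumors share a mouse. Of the epithelial markers, Krt8 (543 ± 231 CPM, SD) and Krt19 (184 ± 167 CPM) were abundant in the vehicle tumors, where CPM stands for counts scaled to the tumor's total. The other 6 of the 8 epithelial genes, among them Epcam (0.337 ± 0.218 CPM), had vehicle means of at most 1.74 CPM, that of Cdh1. The Y-linked genes Ddx3y, Eif2s3y and Uty had 0 counts in each of the 16 tumors, and Kdm5d, also Y-linked, had 5 counts in all, spread over 3 tumors.

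A pair of tumors stood apart from the rest. IL-33 replicate 7 carried transcripts of the reproductive tract at a summed level of 2555 CPM over 13 genes, led by Ovgp1, against at most 31.6 CPM in any other tumor. It also had the highest summed level of fibroblast and smooth muscle genes (19540 CPM, next 6911 CPM) and of macrophage genes (6600 CPM, next 4735 CPM). Of the latter sum, 3952 CPM were those of Apoe. Vehicle replicate 4 had 12800 CPM of red cell transcripts, led by Hba-a1, against 2846 CPM in the next tumor. The TMM scaling factor was 1.24 in IL-33 replicate 7 and 0.640 in vehicle replicate 4. The comparisons of the receptor genes and their relations were therefore also made without IL-33 replicate 7.

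The 6 genes differed widely in level. Relative to the length of the annotated exons, Fcer1g was the most abundant, at a mean of 116 CPM per kilobase over the 16 tumors. Fcgrt followed at 54.9 and Fcgr4 at 52.7 CPM per kilobase, then Fcgr3 at 20.4, Fcgr1 at 19.6 and Fcgr2b at 8.71. Fcer1g was above each of the IgG receptors in 16 of 16 tumors, and above Fcgrt in 14. Fcgrt and Fcgr4 could not be ordered, as Fcgrt was the higher in 10 of 16 tumors, 5 in each group. Fcgr3 was above Fcgr1 in 12 of 16 tumors, 7 given vehicle and 5 given IL-33. Fcgr2b was below Fcgr3 and Fcgr4 in all 16 tumors and below Fcgr1 in 13. Its length, 5790 bases, is that of the exons of all its isoforms together, and the level per length depends on that choice.

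In the GRCm38 annotation, Fcgr2b (chr1:170958617-170976547, minus strand), Fcgr4 (chr1:171018920-171029761, plus strand), Fcgr3 (chr1:171051174-171064935, minus strand) and Fcer1g (chr1:171229572-171234365, minus strand) lie close together on chromosome 1. Fcgr1 lies at chr3:96282909-96293969 and Fcgrt at chr7:45092990-45103851, both on the minus strand. Fcgr3 and Fcgr2b share stretches of exon sequence. Of the 50-base windows of the Fcgr3 transcripts, 9.58% occurred in Fcgr2b transcripts as well, and the longest run shared by their protein-coding transcripts was 129 bases. Reads inside these stretches could have been assigned to either gene or dropped, so the split between Fcgr3 and Fcgr2b carries that uncertainty. Of the windows of Fcgr2b, 6.95% occurred in other genes, 146 in number with Fcgr3 among them. An antisense gene overlapped 2.68% of the exon bases of Fcgr2b, and the use of strand in counting was not given in the sources used here. Fcgr1, Fcgr4, Fcer1g and Fcgrt shared no 50-base window and no exon base with another annotated gene.

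The difference between activation and inhibition is written in short stretches of coding sequence. The first sequence is the part of Fcer1g that encodes its immunoreceptor tyrosine-based activation motif (ITAM), spanning exons 4 and 5 of 5, at chr1:171229880-171230081. The second is the part of Fcgr2b that encodes its inhibitory motif (ITIM), in exon 8 of 8, at chr1:170961062-170961097. Capitals mark the codons of the tyrosines that are phosphorylated in signaling, 2 in the ITAM, which recruits the kinase Syk, and 1 in the ITIM, which recruits the phosphatase SHIP1.
Fcer1g ITAM: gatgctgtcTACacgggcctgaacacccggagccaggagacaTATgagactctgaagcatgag
Fcgr2b ITIM: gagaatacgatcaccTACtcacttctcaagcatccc

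The first question was whether IL-33 treatment moved the activating receptors. All 3 had higher means in the IL-33 group, but none passed the test, and the groups overlapped for each. With edgeR, 0 of the 16817 genes (0%) passed an adjusted p of 0.05, the smallest being 0.418, while 1876 (11.2%) had an unadjusted p under 0.05. DESeq2 also gave 0 genes after adjustment and 691 at the unadjusted threshold, and limma voom gave 0 and 966. The positive and negative fold changes among these were 424 and 267 in DESeq2, and 522 and 444 in limma voom. Of the 6 receptor genes, 0 reached the unadjusted threshold in edgeR's test, 1 did in DESeq2 (Fcgr3) and 2 in limma voom (Fcgr3 and Fcgr4), and none had an adjusted p under 0.05 with any of these tools. Of the genes at the unadjusted threshold in edgeR's test, 1680 had a positive and 196 a negative fold change, and IL-33 replicate 7 was the highest tumor for 92.8% of the former. Without this tumor the balance turned, with 651 genes at that threshold in edgeR's test, 289 with a positive and 362 with a negative fold change, and 0 passed adjustment, while DESeq2 called 1 gene, Alas2, an enzyme of heme synthesis in red cells (log2 fold change -3.45, adjusted p = 0.0126), at 12.8 ± 15.4 CPM in the vehicle group and 1.52 ± 1.25 CPM in the 7 IL-33 tumors left. IL-33 replicate 7 had 34.4 CPM of Alas2, and over the 16 tumors the adjusted p was 0.522 in edgeR's test. The highest vehicle value was 49.2 CPM, in replicate 4. In bulk tumors, a higher level from more leukocytes and one from more RNA per leukocyte cannot be told apart.

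Fcgr3, the receptor of low affinity that is found on most myeloid cells and on NK cells, varied least. Its level lay between 14.7 and 44.9 CPM in the vehicle tumors (median 33.3) and between 26.6 and 49.3 CPM in the IL-33 tumors (median 38.9). The mean was 31.6 ± 8.59 CPM for vehicle (SD, n = 8) and 39.3 ± 6.79 CPM for IL-33. The vehicle mean was exceeded by 7 of the 8 IL-33 tumors, and 2 of them exceeded each vehicle tumor. The log2 fold change was 0.25 (SE 0.13), with an adjusted p of 0.493 in edgeR's test and p = 0.0709 in a two-sided exact permutation test. The low vehicle value was that of replicate 4. In DESeq2 the log2 fold change was 0.25 (adjusted p = 1.00), and in limma voom 0.22 (adjusted p = 0.774). On CPM scaled by TMM factors, the difference was 0.25 on the log2 scale with an exact permutation p of 0.0418. Without IL-33 replicate 7, the exact permutation p was 0.132.

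Fcgr4, the receptor of intermediate affinity found on monocytes, macrophages and neutrophils, had the largest difference of the 6 genes. The vehicle tumors ranged from 12.8 to 129 CPM (median 41.5), and the IL-33 tumors from 18.0 to 166 CPM (median 67.4). The highest values were those of IL-33 replicates 4 (166 CPM) and 8 (153 CPM), followed by vehicle replicate 7. The means were 51.2 ± 40.9 CPM and 81.3 ± 53.6 CPM (SD, n = 8 each). The log2 fold change was 0.64 (SE 0.48), with an adjusted p of 0.669 in edgeR's test and an exact permutation p of 0.189. The lowest IL-33 value was that of replicate 7, and without this tumor the IL-33 mean was 90.3 ± 50.9 CPM, with a log2 fold change of 0.82 and an exact permutation p of 0.0774. In limma voom, which weights the tumors by quality, the log2 fold change over all tumors was 1.14 (adjusted p = 0.766).

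Fcgr1, the high-affinity receptor of monocytes and macrophages, lay between 21.5 and 108 CPM with vehicle (median 35.5) and between 11.2 and 149 CPM with IL-33 (median 41.8). IL-33 replicate 3 was the highest and IL-33 replicate 6 the lowest of the 16 tumors, so the IL-33 group spanned the vehicle group on both sides. The means were 42.0 ± 28.0 CPM and 59.4 ± 46.4 CPM (SD, n = 8 each), and 4 of 8 IL-33 tumors exceeded the vehicle mean. The log2 fold change was 0.43 (SE 0.44), with an adjusted p of 0.783 in edgeR's test and an exact permutation p of 0.565. A single tumor moved this value strongly in either direction, from 0.07 without IL-33 replicate 3 to 0.76 without vehicle replicate 7.

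**Figure D1:**
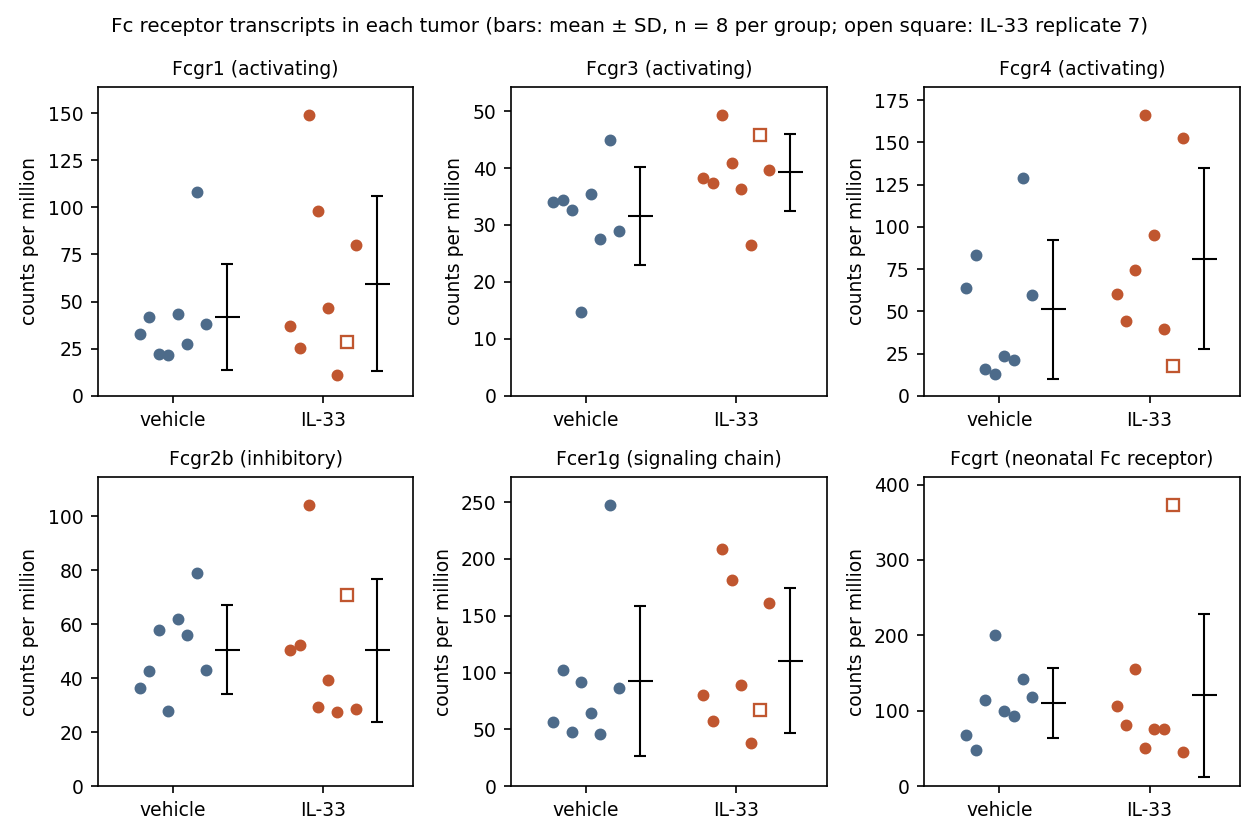
CPM of the 6 Fc receptor genes in each tumor, vehicle on the left and IL-33 on the right of each panel. Points are tumors, the open square is IL-33 replicate 7, and the bars give the mean ± SD of 8 tumors. The groups overlap in all panels, and the open square lies at 372 CPM for Fcgrt, above the other 15 tumors on this scale, which uses no TMM factors.

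The inhibitory receptor had nearly equal means in the groups. Fcgr2b lay between 27.7 and 79.1 CPM in the vehicle tumors (median 49.5) and between 27.5 and 104 CPM in the IL-33 tumors (median 44.9). The means were 50.6 ± 16.4 CPM and 50.3 ± 26.3 CPM (SD, n = 8 each), and 3 of 8 IL-33 tumors exceeded the vehicle mean. The log2 fold change was -0.09 (SE 0.26), with an adjusted p of 0.947 in edgeR's test and an exact permutation p of 0.761. It was -0.34 without IL-33 replicate 3, 0.009 without vehicle replicate 7 and -0.32 in limma voom. IL-33 replicates 4, 6 and 8 lay between 27.5 and 29.2 CPM, close to the lowest vehicle tumor, replicate 4. IL-33 replicate 3 at 104 CPM was the highest of all. On CPM scaled by TMM factors, vehicle replicate 4 was at 43.3, and the lowest vehicle value was 35.1, in replicate 1. On that scale IL-33 replicates 4, 6 and 8 were below each vehicle tumor, at 26.6, 30.7 and 26.6. The exact permutation p was then 0.499.

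The balance of the receptors was described by the log2 ratio of the counts of Fcgr1, Fcgr3 and Fcgr4 together over those of Fcgr2b, with no test because it combines the chosen genes. The ratio was above 0 in each of the 16 tumors, from 0.29 in vehicle replicate 3 to 3.39 in IL-33 replicate 4. Its mean was 1.18 ± 0.68 in the vehicle group and 1.82 ± 1.05 in the IL-33 group (SD, n = 8 each). The difference of 0.64 was smaller than the SD of either group. Without IL-33 replicate 7 it was 0.84, above the vehicle SD. In the IL-33 group, 6 tumors exceeded the vehicle mean, and replicates 4, 5 and 8 were above each vehicle tumor. In replicates 4 and 8, the activating counts were 10.5 and 9.54 times those of Fcgr2b, whereas the highest vehicle ratio was 3.73. These tumors combined high Fcgr4 and high Fcgr1 (98.0 and 80.1 CPM) with low Fcgr2b.

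Taken alone over Fcgr2b, Fcgr4 differed by 0.89 between the groups on the log2 scale, Fcgr3 by 0.44 and Fcgr1 by 0.38. Fcgr3 over Fcgr2b had the narrowest spread, -0.67 ± 0.32 in the vehicle group and -0.23 ± 0.54 in the IL-33 group, and 7 of 8 IL-33 tumors exceeded the vehicle mean. IL-33 replicate 7 had a summed ratio of 0.38, the lowest of its group. Without it, the IL-33 mean was 2.02 ± 0.95 and the difference 0.84. Without IL-33 replicate 4, the difference was 0.41.

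**Figure D2:**
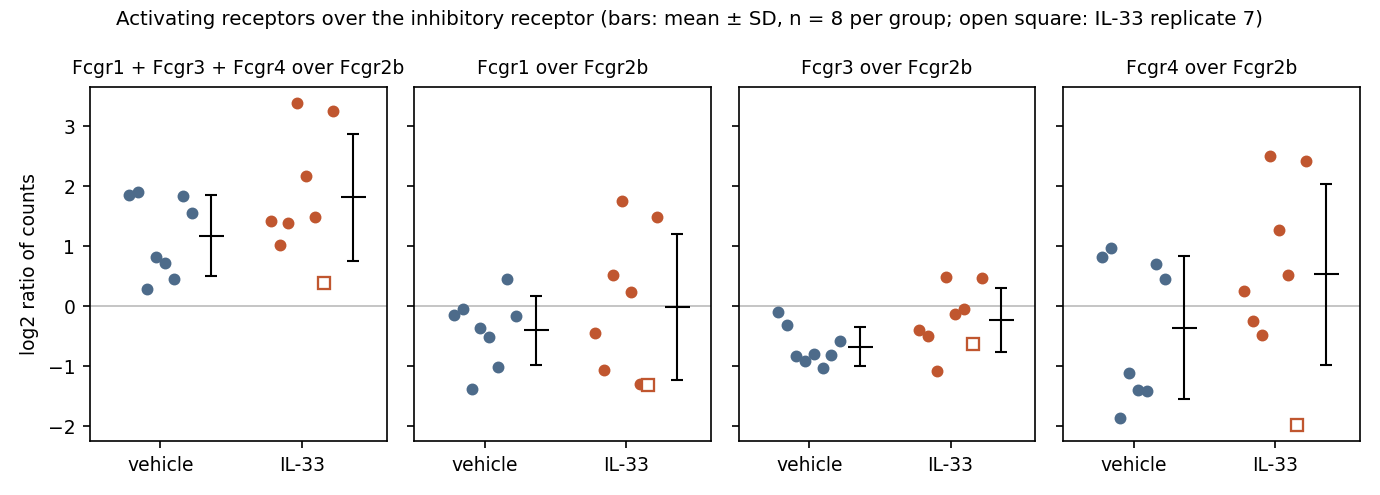
Log2 ratio of counts of the activating receptors over Fcgr2b in each tumor, for the 3 receptors together and for each one alone. Points are tumors, the open square is IL-33 replicate 7, the grey line marks equal counts, and the bars give the mean ± SD of 8 tumors. For the 3 receptors together, IL-33 replicates 4, 5 and 8 lie above all vehicle tumors, at 3.39, 2.17 and 3.25.

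Fcer1g, whose product carries the signal of the activating receptors and also serves the IgE receptor and several C-type lectins, lay between 46.2 and 247 CPM with vehicle (median 75.2) and between 38.1 and 209 CPM with IL-33 (median 84.7). The means were 92.6 ± 65.8 CPM and 111 ± 64.0 CPM (SD, n = 8 each). The highest value was that of vehicle replicate 7, and 3 of 8 IL-33 tumors exceeded the vehicle mean. The log2 fold change was 0.14 (SE 0.39), with an adjusted p of 0.948 in edgeR's test and an exact permutation p of 0.547. It turned to -0.07 without IL-33 replicate 3.

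For Fcgrt, a single tumor widened the IL-33 range. The vehicle tumors ranged from 47.5 to 201 CPM (median 107) and the IL-33 tumors from 45.1 to 372 CPM (median 79.0), with the value of 372 CPM in IL-33 replicate 7 and 156 CPM in the next. The means were 110 ± 46.9 CPM and 120 ± 108 CPM (SD, n = 8 each). The log2 fold change was -0.14 (SE 0.42), with an adjusted p of 0.950 in edgeR's test and an exact permutation p of 0.815. Without IL-33 replicate 7, the IL-33 mean was 84.4 ± 37.5 CPM and the log2 fold change -0.54, with an exact permutation p of 0.254. Without vehicle replicate 4, which had the highest vehicle level, the log2 fold change was 0.21, and with library totals in place of TMM it was 0.13. Just 2 of the 8 IL-33 tumors exceeded the vehicle mean of 110 CPM. On CPM scaled by TMM factors, as used in edgeR's test, vehicle replicate 4 was the highest tumor at 314, above IL-33 replicate 7 at 300.

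The genes that carry the signal onward were then counted. Of 23 genes of the activating pathway, such as the kinases Syk and Lyn and the oxidase subunits Ncf1 and Cybb, 22 had a log2 fold change above 0, with a median of 0.32. For comparison, 58.3% of all tested genes had a log2 fold change above 0, and their median was 0.06. An unadjusted p under 0.05 was found for 11.2% of them, in either direction. In this list 1 gene had an unadjusted p under 0.05, Pik3r5, a regulatory subunit of PI3 kinase γ, at 24.9 ± 6.17 CPM in the vehicle group and 33.3 ± 9.45 CPM in the IL-33 group (adjusted p = 0.428 in edgeR's test). It was above the vehicle mean in 8 of 8 IL-33 tumors. Lyn, the most abundant, was at 84.0 ± 45.3 and 109 ± 56.6 CPM (log2 fold change 0.33, adjusted p = 0.764), and Ncf1 was the exception below 0, at -0.09. These genes were measured in the same tumors, so their shared direction is not 22 separate observations. Their summed level was highest in IL-33 replicate 4 (1611 CPM) and lowest in vehicle replicate 4 (313 CPM).

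Of 14 genes of the inhibitory pathway, 9 had a log2 fold change above 0, with a median of 0.04 (0.15 without IL-33 replicate 7), and 0 had an unadjusted p under 0.05, or 1, Cd300lf, without that tumor. Over all tested genes, 11.2% had such a p, or 651 of 15803 without IL-33 replicate 7. Ptpn11, the phosphatase SHP2, was the most abundant of the list, at 159 ± 50.5 and 161 ± 27.5 CPM. Cd300lf, an inhibitory receptor of myeloid cells, was at 14.7 ± 8.41 and 24.5 ± 12.1 CPM (log2 fold change 0.73, adjusted p = 0.536 in edgeR's test) and above the vehicle mean in 7 of 8 IL-33 tumors. Lilrb4a was at 9.64 ± 8.47 and 7.27 ± 10.6 CPM, with a log2 fold change of -0.67.

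A list of genes related to the Fcer1g chain showed no common direction. It also holds the adaptors Tyrobp and Cd247 and the lectin Clec7a, so not all of its genes encode receptors that use this chain. Of its 14 genes that were tested, 7 had a log2 fold change above 0, with a median of 0.01 (0.06 without IL-33 replicate 7), and 1 had an unadjusted p under 0.05. This was Csf2rb, the common β chain of the GM-CSF, IL-3 and IL-5 receptors, at 32.0 ± 12.3 CPM in the vehicle group and 51.7 ± 29.2 CPM in the IL-33 group, with its highest value of 112 CPM in IL-33 replicate 7. Without this tumor its log2 fold change was 0.39, and 0 genes of the list were at that threshold. Pira2 was the most abundant of the list, at 61.9 ± 24.3 and 66.2 ± 26.2 CPM. Clec4d, a C-type lectin of myeloid cells, was at 9.96 ± 7.67 and 7.36 ± 2.76 CPM, with its highest value in vehicle replicate 4.

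Of 12 other receptors of antibody that were tested, 6 had a log2 fold change above 0, and the median was -0.05, or -0.84 without IL-33 replicate 7. Without that tumor, 0 genes of the list were higher and 2 were lower at an unadjusted p under 0.05, Fcrlb and Fcrl6. Of all genes, 651 of 15803 then had such a p. Pigr, the epithelial receptor that carries polymeric IgA, had an unadjusted p under 0.05 with the higher level in the IL-33 group, but its level of 30.0 CPM in IL-33 replicate 7 set that difference, and without this tumor its log2 fold change was -1.71. Fcrlb was lower, at 1.77 ± 0.805 CPM in the vehicle group and 0.783 ± 0.652 CPM in the IL-33 group (log2 fold change -1.21, adjusted p = 0.418 in edgeR's test). Only 1 of 8 IL-33 tumors was above the vehicle mean for this gene. Trim21, a cytosolic receptor of antibody, was the most abundant, at 20.8 ± 8.73 and 22.7 ± 12.1 CPM.

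FcRn is assembled with β2-microglobulin. B2m was at 2146 ± 388 CPM in the vehicle group and 2474 ± 598 CPM in the IL-33 group (log2 fold change 0.13, adjusted p = 0.869 in edgeR's test). Its log2 fold change was 0.25 without IL-33 replicate 7. Of the 6 genes that encode its partners, chaperones and the ligand albumin, 2 had a log2 fold change above 0, with a median of -0.16 (-0.06 without IL-33 replicate 7), and 2 had an unadjusted p under 0.05, both lower, as for 196 of the 16817 tested genes. One of the 2 in this list was Calr, the chaperone calreticulin, at 1437 ± 149 and 1163 ± 226 CPM. The other was Alb, at 22.9 CPM in vehicle replicate 2 and 2.93 ± 8.06 CPM over the vehicle group, against 0.0356 ± 0.101 CPM in the IL-33 group.

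The second question was whether receptor levels followed antibody transcripts. Immunoglobulin genes, 268 in all, took between 0.00129% of the counts in IL-33 replicate 6 and 0.319% in IL-33 replicate 4. The mean share was 0.0311 ± 0.0434% in the vehicle group and 0.122 ± 0.117% in the IL-33 group (SD, n = 8 each), a log2 difference of 1.83 with an exact permutation p of 0.153. The vehicle mean was exceeded by 5 of 8 IL-33 tumors. The highest shares were those of IL-33 replicates 4, 7 and 8, followed by vehicle replicate 2 at 0.130% and IL-33 replicate 5 at 0.109%. Without IL-33 replicate 7, the log2 difference was 1.52 and the exact permutation p was 0.246.

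Among the 4 IgG heavy chain constant genes, the source of the ligand of these receptors, all had a log2 fold change above 0, with a median of 2.27, and 2 had an unadjusted p under 0.05. Of all tested genes, 11.2% had such a p in either direction, or 651 of 15803 without IL-33 replicate 7. Ighg2c was at 9.16 ± 15.0 CPM in the vehicle group and 81.8 ± 106 CPM in the IL-33 group (log2 fold change 3.09, adjusted p = 0.418 in edgeR's test), and above the vehicle mean in 5 of 8 IL-33 tumors. Ighg1, the most abundant, was at 45.5 ± 60.5 and 79.5 ± 75.1 CPM (log2 fold change 0.75, adjusted p = 0.810). Of the 8 other constant genes, 6 had a log2 fold change above 0, with a median of 1.14, and 3 had an unadjusted p under 0.05, or 1 without IL-33 replicate 7. Igkc, which was not under that threshold without this tumor, was at 87.2 ± 115 and 408 ± 401 CPM, while Igha had 838 CPM in IL-33 replicate 7 alone, and its log2 fold change of 3.14 was 1.08 without that tumor. Constant genes of IgG are similar in sequence, so reads may be split between them.

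Of the 10 plasma cell genes, 5 had an unadjusted p under 0.05, all higher in the IL-33 group, with a median log2 fold change of 1.56, where 11.2% of all tested genes had such a p in either direction. Leaving out IL-33 replicate 7 gave a median of 1.23 and again 5 genes at that threshold. Mzb1, a chaperone of antibody secretion, was at 2.16 ± 2.81 CPM in the vehicle group and 21.4 ± 24.9 CPM in the IL-33 group (log2 fold change 3.24, adjusted p = 0.418 in edgeR's test), and above the vehicle mean in 6 of 8 IL-33 tumors. Sdc1, also an epithelial gene, was the most abundant of the list, at 234 ± 42.8 and 218 ± 56.4 CPM. Of the 10 B cell genes, 8 had a log2 fold change above 0, with a median of 0.23, and 0 had an unadjusted p under 0.05. Their summed level was highest in vehicle replicate 2 (104 CPM). Across the 16 tumors, the immunoglobulin share correlated with the mean log2 level of the plasma cell genes (r = 0.907, described without a test) and of the B cell genes (r = 0.837).

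The relation of each receptor gene to the immunoglobulin share was computed across the 16 tumors on log2(CPM + 0.5), as 1 of 3 relations computed for each of 16666 genes other than immunoglobulin genes. Over all of these genes, 15 (0.0900%) passed an adjusted p of 0.05, and none of the 6 receptor genes was among them. Fcer1g had the highest correlation, with r = 0.623 (permutation p = 0.0109, adjusted p = 0.221) and Spearman's rho = 0.674 (permutation p = 0.00521, adjusted p = 0.113). Of all genes, 3.73% had a higher r. Fcgr1 followed with r = 0.572 (permutation p = 0.0206, adjusted p = 0.278) and rho = 0.532 (permutation p = 0.0358, adjusted p = 0.251).

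Fcgr3 had r = 0.461 (permutation p = 0.0661, adjusted p = 0.432) and rho = 0.647 (permutation p = 0.00847, adjusted p = 0.139). Fcgr4 had r = 0.382 (permutation p = 0.144, adjusted p = 0.560) and rho = 0.453 (permutation p = 0.0798, adjusted p = 0.353). The inhibitory receptor and the neonatal receptor stood at the other end. Fcgr2b had r = 0.103 (permutation p = 0.702, adjusted p = 0.900) and rho = 0.100 (permutation p = 0.712, adjusted p = 0.868). Fcgrt had r = 0.011 (permutation p = 0.970, adjusted p = 0.993) and rho = -0.062 (permutation p = 0.824, adjusted p = 0.925).

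Leaving out IL-33 replicate 7, which had the second highest share but low Fcgr4, Fcgr1 and Fcer1g, raised r to 0.706 for Fcer1g (adjusted permutation p = 0.206), 0.659 for Fcgr1 and 0.548 for Fcgr4, while it was 0.409 for Fcgr3, 0.015 for Fcgr2b and -0.272 for Fcgrt. The values within the groups differed. In the 8 IL-33 tumors, r was 0.759 for Fcer1g (exact permutation p = 0.0292), 0.769 for Fcgr3 (exact permutation p = 0.0271) and 0.756 for Fcgr1 (exact permutation p = 0.0291). In the 8 vehicle tumors, r was 0.405 for Fcer1g (exact permutation p = 0.328), 0.097 for Fcgr3 and 0.138 for Fcgr1. No gene of the 16666 passed an adjusted p of 0.05 within either group, and whether the groups differ in this relation was not tested. The tumors with the lowest shares, IL-33 replicate 6 and vehicle replicate 1, were the farthest from the median on the log scale used for r, and without both of them r was 0.50 for Fcer1g (permutation p = 0.0698) and 0.440 for Fcgr1 (permutation p = 0.114). For both genes, the unadjusted p of Pearson's r was thus no longer under 0.05 over these 14 tumors.

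The ratio of activating to inhibitory counts correlated with the immunoglobulin share with r = 0.408 and rho = 0.324 over the 16 tumors, and with r = 0.573 without IL-33 replicate 7. Within the groups, r was 0.113 in the vehicle tumors and 0.415 in the IL-33 tumors. IL-33 replicates 4, 5 and 8, which had the highest ratios, were among the 5 tumors with the highest shares, as was vehicle replicate 2, which had the highest vehicle ratio (1.90). IL-33 replicate 7, also among these 5, had a log2 ratio of 0.38.

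**Figure D3:**
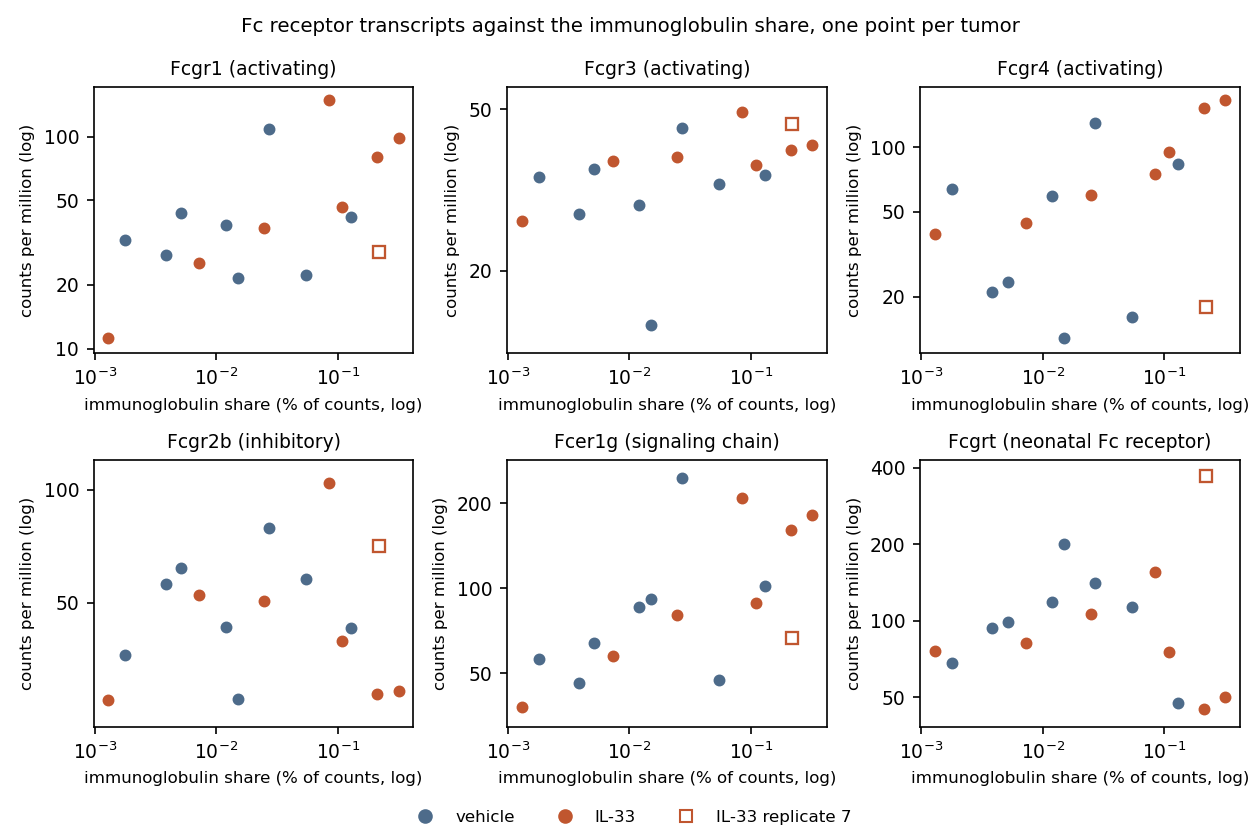
CPM of each Fc receptor gene against the share of counts on immunoglobulin genes, both on log axes, with a point for each of the 16 tumors. Over the 16 tumors, r was 0.623 for Fcer1g, 0.572 for Fcgr1 and 0.103 for Fcgr2b. No receptor gene passed after adjustment, and whether r differs between the genes was not tested. The open square of IL-33 replicate 7 lies low for Fcgr4 and high for Fcgrt.

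Over the 16 tumors, each receptor gene had a higher r with macrophage genes than with the immunoglobulin share, though Fcgr4 did not within the IL-33 group, a difference that was not tested. Of the 16666 genes, 2175 (13.1%) correlated with the mean level of 14 macrophage genes at an adjusted p under 0.05, and 2391 (14.3%) with that of 14 interferon γ-inducible genes, counts that became 3136 and 4044 without IL-33 replicate 7. Of the 6 receptor genes, 3 passed for the macrophage genes. Fcgr1 had r = 0.858 (permutation p = 3e-05, adjusted p = 0.00157) and rho = 0.812 (permutation p = 0.00031, adjusted p = 0.00668). Fcer1g had r = 0.796 (permutation p = 0.00028, adjusted p = 0.00605) and rho = 0.768 (permutation p = 0.00087, adjusted p = 0.0130). Fcgr3 had r = 0.789 (permutation p = 0.00015, adjusted p = 0.00413) and rho = 0.856 (permutation p = 5e-05, adjusted p = 0.00230). On CPM scaled by TMM factors, Fcgr3 did not pass, as given below.

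Fcgr4 and Fcgr2b had lower correlations with the macrophage genes, r = 0.531 (permutation p = 0.0357, adjusted p = 0.153) and r = 0.518 (permutation p = 0.0411, adjusted p = 0.167), with rho = 0.571 (permutation p = 0.0233) and rho = 0.506 (permutation p = 0.0484). Without IL-33 replicate 7, Fcgr4 passed, with r = 0.698 (adjusted permutation p = 0.0266), as did 3136 of all genes. Fcgrt had r = 0.144 (permutation p = 0.596) and rho = 0.156 (permutation p = 0.563). Within the vehicle group, r was 0.915 for Fcgr1 (exact permutation p = 0.0062, adjusted p = 0.179), 0.788 for Fcgr3 (exact permutation p = 0.0451, adjusted p = 0.354) and 0.753 for Fcer1g (exact permutation p = 0.0466, adjusted p = 0.358), and 0 of the 16666 genes passed there. Within the IL-33 group, r was 0.951 for Fcgr3 (exact permutation p = 0.000124, adjusted p = 0.0468), 0.834 for Fcgr1 (exact permutation p = 0.0109, adjusted p = 0.138) and 0.820 for Fcer1g (exact permutation p = 0.0122, adjusted p = 0.146), so that Fcgr3 alone of these 3 genes passed, as 91 of the 16666 genes did in that group. For Fcgr4, r was 0.772 within the vehicle group (exact permutation p = 0.0124, not passing after adjustment) and 0.269 within the IL-33 group (exact permutation p = 0.519). Without vehicle replicate 7 and IL-33 replicate 6, the tumors farthest from the median score, r was 0.763 for Fcgr1 (adjusted permutation p = 0.0257), 0.805 for Fcgr3 (adjusted permutation p = 0.00321) and 0.679 for Fcer1g (adjusted permutation p = 0.0680). Fcer1g thus no longer passed over these 14 tumors, where 1602 of the 16666 genes did.

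For the interferon γ-inducible genes, a program that Fcgr1 is known to belong to, 4 of the 6 receptor genes passed. Fcgr1 had r = 0.883 (permutation p = 3e-05, adjusted p = 0.00101) and rho = 0.759 (permutation p = 0.00097, adjusted p = 0.0134). Fcer1g had r = 0.822 (permutation p = 0.00018, adjusted p = 0.00348) and rho = 0.647 (permutation p = 0.0083, adjusted p = 0.0504). Fcgr4 had r = 0.739 (permutation p = 0.00128, adjusted p = 0.0145) and rho = 0.606 (permutation p = 0.0152, adjusted p = 0.0759). Fcgr3 had r = 0.713 (permutation p = 0.00073, adjusted p = 0.00963) and rho = 0.709 (permutation p = 0.00278, adjusted p = 0.0243). Fcgr2b had r = 0.310 (permutation p = 0.242) and rho = 0.400 (permutation p = 0.127). Fcgrt had r = -0.280 (permutation p = 0.297), a negative value.

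Within the vehicle group, these correlations were 0.833 for Fcgr1 (exact permutation p = 0.00995, adjusted p = 0.124), 0.840 for Fcgr4 (exact permutation p = 0.00263, adjusted p = 0.0710), 0.820 for Fcgr3 (exact permutation p = 0.00747, adjusted p = 0.106) and 0.650 for Fcer1g (exact permutation p = 0.0888, adjusted p = 0.365), and 0 of the 16666 genes passed. Within the IL-33 group they were 0.977 for Fcer1g (exact permutation p = 0.00062, adjusted p = 0.0427), 0.952 for Fcgr1 (exact permutation p = 0.000893, adjusted p = 0.0504), 0.719 for Fcgr3 (exact permutation p = 0.0310, adjusted p = 0.254) and 0.669 for Fcgr4 (exact permutation p = 0.0727, adjusted p = 0.387), so that Fcer1g alone of these 4 genes passed, as 291 of the 16666 genes did in that group. Without IL-33 replicate 4 and vehicle replicate 7, the tumors farthest from the median score, r was 0.830 for Fcgr1 (adjusted permutation p = 0.0119), 0.717 for Fcer1g (adjusted permutation p = 0.0652), 0.695 for Fcgr3 (adjusted permutation p = 0.0606) and 0.632 for Fcgr4 (adjusted permutation p = 0.135), so that of these 4 genes Fcgr1 alone still passed over 14 tumors, where 1000 of the 16666 genes did. On CPM scaled by TMM factors, Fcgr3 no longer passed for either list, with r = 0.638 for the macrophage genes (adjusted permutation p = 0.0782) and r = 0.635 for the interferon γ-inducible genes (adjusted permutation p = 0.0741), and the numbers of all genes that passed were 1355 and 1511.

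No gene of either list passed the test between the groups. Over all tested genes, 11.2% had an unadjusted p under 0.05, or 651 of 15803 without IL-33 replicate 7. Of the 14 interferon γ-inducible genes, 11 had a log2 fold change above 0, with a median of 0.12 (0.20 without IL-33 replicate 7) and 0 genes at an unadjusted p under 0.05. Of the 14 macrophage genes, 8 had a log2 fold change above 0, with a median of 0.03 (0.06 without IL-33 replicate 7) and 0 genes at that threshold, or 1, Itgam, without that tumor. Itgam, which encodes the complement receptor subunit CD11b, was at 134 ± 55.3 and 206 ± 98.5 CPM (log2 fold change 0.60, adjusted p = 0.583 in edgeR's test), and Cd14 at 128 ± 51.0 and 107 ± 37.8 CPM. Apoe, the most abundant, had 3952 CPM in IL-33 replicate 7. The macrophage and interferon γ scores correlated with each other (r = 0.869) and with the immunoglobulin share (r = 0.722 and 0.640), so the 3 relations are not independent of one another.

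As Fcgr1 had the highest r with the interferon γ-inducible genes over the 16 tumors, though not within either group, the 250 bases before its start are shown (RefSeq, GRCm38.p6, chr3:96293970-96294219, minus strand). The promoters of all 6 genes were found by symbol, in 7 windows, and searched on both strands for the letters TTCNNNGAA, the gamma-activated sequence of interferon γ-inducible genes, and GAGGAA, a core bound by the myeloid factor PU.1. Of the 32817 windows of this length, 7.01% held the former and 23.3% the latter. TTCNNNGAA was found in the window of Fcgr1 alone among the 6 genes, 109 bases before the start, and GAGGAA in those of Fcgr1, Fcgr3 and Fcgr4. Capitals mark the matches, which are descriptions of letters and were not tested as binding sites.
Fcgr1 promoter: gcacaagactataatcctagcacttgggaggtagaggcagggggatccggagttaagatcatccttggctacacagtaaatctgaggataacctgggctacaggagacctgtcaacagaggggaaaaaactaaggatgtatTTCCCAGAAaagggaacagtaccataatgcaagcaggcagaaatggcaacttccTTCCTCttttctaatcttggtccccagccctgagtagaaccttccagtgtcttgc

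Among themselves, the genes fell along a gradient, described here without tests since the genes were chosen together. Fcgr1 and Fcer1g were the closest pair, with r = 0.913 over the 16 tumors, 0.812 within the vehicle group and 0.991 within the IL-33 group. Fcgr4 correlated with Fcgr1 at r = 0.701 and with Fcer1g at 0.691, whereas its r with the inhibitory Fcgr2b was -0.148, with 0.275 within the vehicle group and -0.456 within the IL-33 group. Fcgr2b correlated most with Fcgr3 (r = 0.561), with which it shares exon sequence, and with Fcgrt (r = 0.535). With Fcgrt, r was -0.019 within the vehicle group and 0.783 within the IL-33 group. Fcgrt and Fcgr4 ran in opposite directions, with r = -0.604 over all tumors, -0.420 within the vehicle group and -0.813 within the IL-33 group.

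The genes most like each receptor were sought among 13103 genes with a mean CPM of at least 1. For Fcgr1 these were Lrrc25 (r = 0.975), Il18 (r = 0.966) and I830077J02Rik (r = 0.952), over 16 tumors. For Fcer1g they were the leukocyte genes Hcls1 (r = 0.981), Cd52 (r = 0.977) and Coro1a (r = 0.976). For Fcgr4 they were the myeloid receptors Cd300e (r = 0.974), Sirpb1a (r = 0.972) and Siglece (r = 0.971). Fcgr3 was close to Sdcbp (r = 0.942) and Sumo3 (r = 0.935), which are expressed in most cell types. For Fcgr2b the likeness was lower, with C5ar1 (r = 0.861), Mfsd12 and Il4ra (both r = 0.823), and for Fcgrt the nearest were Ang (r = 0.950), Cd209d (r = 0.948) and Apoe (r = 0.942).

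Without IL-33 replicate 7, the nearest genes of Fcgrt were others, Tmed3 and Pf4 (both r = 0.945) and Hsbp1 (r = 0.938). Fcgr1 was then closest to Lrrc25 (r = 0.976), Cyth4 (r = 0.971) and Gm21188 (r = 0.970), and Fcer1g to Fes (r = 0.988), Hcls1 (r = 0.984) and Trbc1 (r = 0.981). Fcgr4 was closest to Adgre4 (r = 0.980), Plxnb3 (r = 0.976) and Cd300e (r = 0.971), Fcgr3 to Stxbp3 (r = 0.941), Cmtm6 (r = 0.939) and Sdcbp (r = 0.938), and Fcgr2b to Il4ra (r = 0.864), Chp2 (r = 0.855) and C5ar1 (r = 0.848).

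Other cells that carry Fc receptors were followed by their markers. For comparison, 11.2% of all tested genes had an unadjusted p under 0.05, or 651 of 15803 without IL-33 replicate 7. Of 8 inflammatory monocyte genes, 6 had a log2 fold change above 0, with a median of 0.44 (0.27 without IL-33 replicate 7) and 0 genes at an unadjusted p under 0.05, or 2 without that tumor. Ly6c2 was at 24.9 ± 28.8 CPM in the vehicle group and 72.2 ± 77.6 CPM in the IL-33 group (log2 fold change 1.48, adjusted p = 0.480 in edgeR's test), highest in IL-33 replicate 4. Vcan, the most abundant of the list, was at 311 ± 161 and 273 ± 115 CPM, with a log2 fold change of -0.20 (adjusted p = 0.908 in edgeR's test). Of 10 neutrophil genes, 5 were above 0, with a median of -0.20 (-0.74 without IL-33 replicate 7), and S100a9 had its highest value of 249 CPM in vehicle replicate 4. Of 8 NK cell genes, 6 were above 0, with a median of 0.16 (0.32 without IL-33 replicate 7), and 1 had an unadjusted p under 0.05 (2 without that tumor), Klra8, with 16 counts over all tumors, while Gzma was at 28.1 ± 11.5 and 34.3 ± 25.0 CPM. Of 8 dendritic cell genes, 7 were above 0, with a median of 0.55, and Itgax was at 34.3 ± 31.3 and 51.7 ± 47.9 CPM. Their part in the levels of the receptor genes was not tested.

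Of 10 mast cell genes, which mark cells that use Fcer1g for the IgE receptor, 3 were above 0, with a median of -0.57 (-0.86 without IL-33 replicate 7), and 2 had an unadjusted p under 0.05, higher in the IL-33 group. Of all tested genes, 11.2% had such a p in either direction. Gata2 had 123 CPM in IL-33 replicate 7, and without this tumor its log2 fold change was -0.81. No gene of the list was then higher at that threshold, and 1 was lower. Of all genes, 651 of 15803 were then at that threshold in either direction. Of 9 type 2 response genes, 4 were above 0, with a median of -0.09 (-0.003 without IL-33 replicate 7), and Il4ra was at 251 ± 39.6 and 250 ± 74.7 CPM. Among the other lists, 8 of 10 endothelial, 6 of 8 epithelial and 8 of 10 fibroblast and smooth muscle genes had a log2 fold change above 0, with medians of 0.64, 4.50 and 0.81, which became -0.30, -0.01 and -0.82 without IL-33 replicate 7. All 13 reproductive tract genes had an unadjusted p under 0.05, higher in the IL-33 group, as for 1680 of the 16817 tested genes. Their median was 5.71, and -0.04 without that tumor. Of 7 liver genes, 1 was above 0, with a median of -1.50, and of 6 red cell genes 0 were, with a median of -2.35. Without IL-33 replicate 7 these medians were -3.69 and -3.63. In that setting, 6 of 6 red cell genes had an unadjusted p under 0.05, lower in the IL-33 group, as for 362 of the 15803 genes tested.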

How the data were processed

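The authors deposited, for each of 16 tumors (8 vehicle, 8 IL-33), raw read counts per gene from poly(A)-selected RNA. The submitters' processing notes name HISAT2, featureCounts and mm10. Versions, strand setting and annotation release were not given in the sources used here. Gene identifiers were paired with GENCODE M21 (GRCm38) symbols for 22255 of 22298 genes. CPM used the total count of the tumor. Genes whose counts summed to 10 or more were tested with edgeR 4.0.16 (R 4.3.3), using TMM, glmQLFit, glmQLFTest and Benjamini-Hochberg adjustment. The replicate number was left out, as the sources used here do not say that it pairs the tumors. Single genes were compared by exact permutation over 12870 assignments of log2(CPM + 0.5), and relations across tumors by 100000 permutations (40320 orders within a group). Genes were named by rule: the most abundant of a list, those with its smallest p in each direction, and up to 3 of the nearest to each receptor. Krt19, Epcam, Cdh1, Calr, Alas2 and the Y-linked genes were named after their values were seen. The receptor genes and lists were chosen with earlier results of these data known. Alternatives included DESeq2 1.42.0 and limma 3.58.1.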

Additional observations from a re-analysis of the deposited data

Results flagged for a closer look

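Dixon's criterion for 8 tumors is the gap to the next tumor over the range of the group. It was applied to 13 measures in both groups, 26 in all, and singled out 5 values. For values with a normal distribution, chance gives about 1 in 20. Levels and shares were used here without a log, so that rate need not hold and the 5 values were not set against chance. In vehicle replicate 7, Fcgr1 was at 108.3 CPM (next 43.5 CPM) and Fcer1g at 247.1 CPM (next 101.8 CPM), far above the other vehicle tumors. This tumor also had the highest summed level of interferon γ-inducible genes, 2151 CPM. In IL-33 replicate 7, Fcgrt was at 372.4 CPM (next 155.6 CPM), the tumor with 2555 CPM of reproductive tract transcripts. In vehicle replicate 2, the immunoglobulin share was 0.1297% (next 0.0545%) and the summed level of B cell genes 104.3 CPM (next 35.8 CPM). What set these tumors apart was not tested.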

How the results depend on the processing

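The results were recomputed under 382 alternatives over 34 results, of which 338 kept the direction and the side of the threshold (for a ratio or share, stayed within the spread between tumors). Another 20 fell short of a threshold they had passed, 3 passed one, 13 changed sign and 8 counts moved by more than 1.5 times. For the activating to inhibitory ratio, the spread was 0.885, wider than the difference of 0.64, so staying within it asks little. Over the 20 alternatives of this ratio, the difference was 0.38 to 0.89. Spearman's coefficient and the 14 tumors nearest the median for the macrophage and interferon γ genes, the setting without both tumors that stand apart, and DESeq2 without IL-33 replicate 7 were chosen after seeing the data. The cause was not tested for any of the changes below, except that the groups hold fewer tumors than the whole.

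Genes with an adjusted p under 0.05 numbered 0 in each setting except DESeq2 without IL-33 replicate 7, with 1. Genes with an unadjusted p under 0.05 numbered 691 with DESeq2, 640 with filterByExpr, 966 with limma voom, 659 without IL-33 replicate 7 and vehicle replicate 4, and 678 with DESeq2 without IL-33 replicate 7. Leaving out each tumor in turn gave 651 (without IL-33 replicate 7) to 2163.

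Leaving out each tumor gave log2 fold changes of -0.34 to 0.009 for Fcgr2b, -0.07 to 0.47 for Fcer1g and -0.54 to 0.21 for Fcgrt. With library totals, Fcgrt was at 0.13. The exact permutation test of Fcgr3 gave 0.25 with TMM-scaled CPM (p = 0.0418). Over 27 alternatives each, the log2 fold change stayed above 0 for Fcgr1 (0.07 to 0.76), Fcgr3 (0.19 to 0.32, 4 with an unadjusted p under 0.05) and Fcgr4 (0.45 to 1.14, 1 such). The smallest adjusted p of any receptor gene was 0.399, for Fcgr3.

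With the immunoglobulin share, r of Fcgr2b was -0.040 on TMM-scaled CPM and -0.199 over 14 tumors. For Fcgrt it was -0.062 by Spearman's coefficient, -0.272 without IL-33 replicate 7, -0.077 in the vehicle group, -0.085 on TMM-scaled CPM and -0.164 over 14 tumors.

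In the relations to both lists that follow, each value of Fcgr1, Fcgr3 and Fcer1g had an adjusted p above 0.05, as did those of Fcgr4 with the interferon γ-inducible genes. With the macrophage genes, the vehicle group gave 0.915 for Fcgr1, 0.788 for Fcgr3, 0.753 for Fcer1g and -0.052 for Fcgrt. The IL-33 group gave 0.834 for Fcgr1 and 0.820 for Fcer1g. TMM-scaled CPM gave 0.638 for Fcgr3, the 14 tumors 0.679 for Fcer1g, and leaving out IL-33 replicate 7 gave 0.698 for Fcgr4, which then passed, and -0.064 for Fcgrt.

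With the interferon γ-inducible genes, the vehicle group gave 0.833 for Fcgr1, 0.820 for Fcgr3, 0.840 for Fcgr4 and 0.650 for Fcer1g. The IL-33 group gave 0.952 for Fcgr1, 0.719 for Fcgr3 and 0.669 for Fcgr4. Spearman's coefficient was 0.606 for Fcgr4 and 0.647 for Fcer1g. TMM-scaled CPM gave 0.635 for Fcgr3, and the 14 tumors 0.695 for Fcgr3, 0.632 for Fcgr4 and 0.717 for Fcer1g.

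The sources used here do not say whether replicate numbers pair the tumors. Of the 8 vehicle tumors, 1 was closest to the IL-33 tumor of its own number, with correlations from -0.318 to 0.351. Whether tumors of the same number share a batch was not tested. With the number as a block, 318 genes had an unadjusted p under 0.05, and sign flips gave 0.35 for Fcgr3 (exact p = 0.0313).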
